A study of Mus musculus with 9 samples.

Results

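Scn4a, Scn7a, Scn3b, Scn4b, Hcn2 and Hcn4 are genes of voltage-gated sodium channels and pacemaker channels, taken by gene name from the deposited table of coding genes in mouse heart, in which they were 6 of 22481 genes. RNA from wild type mouse hearts had been sequenced at embryonic day 18 (E18), 3 days of age (3d) and 8 weeks of age (8w), with 3 libraries per stage and no treatment. The labels give the tissue as heart and also use the word cardiocytes; nothing used here states strain or sex. They call the libraries biological replicates without saying that each came from a separate animal, so p-values measure the spread between these samples.

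A voltage-gated sodium channel has a pore-forming alpha subunit, which carries the rapid inward current of the action potential upstroke, and accessory beta subunits that alter its gating and its place in the membrane. Pacemaker channels of the HCN family open on hyperpolarization, bind cyclic AMP and carry the current known as the funny current, which helps to set the rhythm of the sinoatrial node. Of these genes Scn4a encodes the alpha subunit best known from skeletal muscle. Scn7a encodes a related protein known as a sensor of extracellular sodium, Scn3b and Scn4b encode beta subunits, and Hcn2 and Hcn4 encode pacemaker channels, of which Hcn4 is the main one of the sinoatrial node.

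4 of the genes were higher in adult heart than at both earlier stages. Scn7a rose in both intervals. Scn4a, Scn4b and Hcn2 were near the lower end of measurement at E18 and 3d and were then high at 8w. Mean FPKM at 8w was 29.4-fold that at 3d for Scn4a, for which the ratio of fragments was 16.3 (95% counting interval 13.0 to 20.6), and 14.0-fold for Hcn2, and Scn4b went from 2 fragments in the 3d libraries to 1165 in the 8w libraries. FPKM, fragments scaled to transcript length and to library size, is a level per length that was computed by the authors. From E18 to 3d the mean FPKM of Hcn2 rose 2.12-fold without overlap, against 1.99-fold for Scn7a. Whether the early changes of Hcn2 and Scn4a were called depended on the scale. Hcn4 and Scn3b had stage ranges that overlapped in every comparison.

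**Figure D1:**
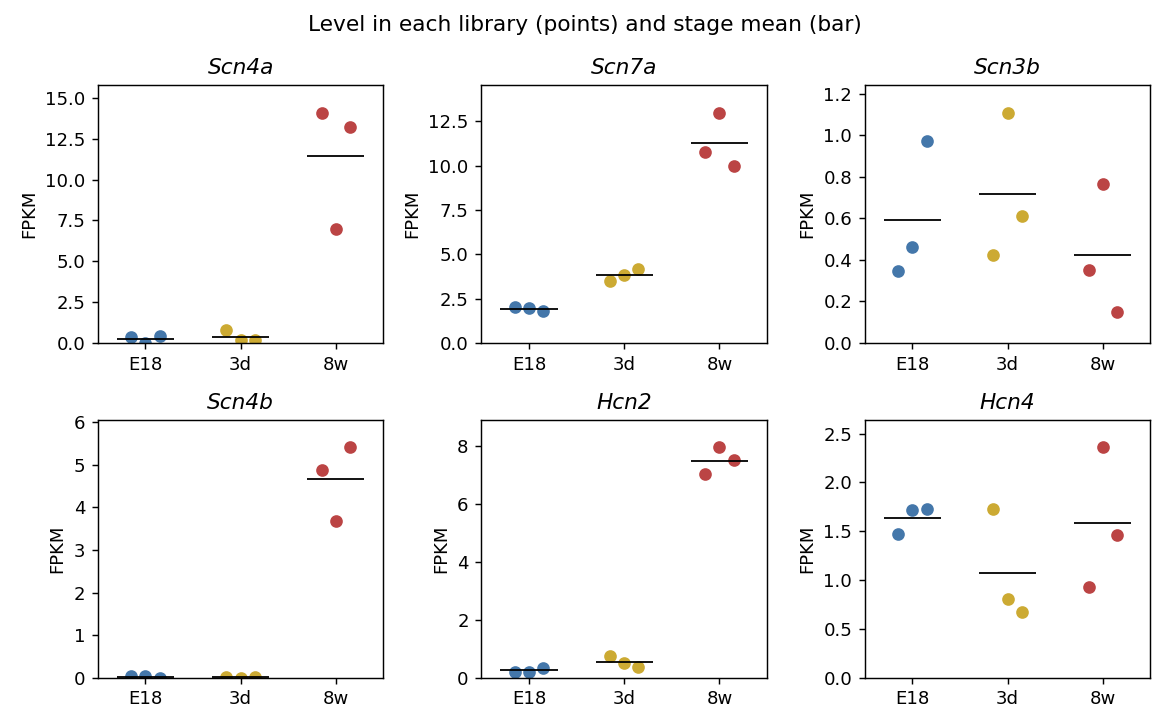
FPKM of each gene (vertical axis, a separate scale per gene) in each of the 9 libraries (points, replicates 1 to 3 from left to right within a stage), with the stage mean as a bar. The 8w libraries of Scn4a, Scn7a, Scn4b and Hcn2 lie above all E18 and 3d libraries, and those of Scn3b and Hcn4 do not.

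Differences between stages were tested with limma on log2(FPKM + 1) over the 11930 genes with a mean of at least 1 FPKM in the 9 libraries. A gene was called at a Benjamini-Hochberg adjusted p under 0.05, adjusted over all those genes, and errors of fold changes are standard errors. Scn3b, at a mean of 0.577 FPKM, did not enter this test, and the other 5 did. For 3d against E18, 1 of the 5, Scn7a, was called, beside 26.4% of all tested genes called in either direction and 5.0% called higher. In 8w against 3d, 4 of the 5 were called, all higher, beside 58.4% called in either direction and 21.4% called higher. In 8w against E18 the same 4 were called higher, beside 65.1% and 17.8%. Scn4a, Scn4b and Hcn2 were under 1 FPKM in mean at E18 and at 3d and entered the test only through their 8w libraries, so these counts are a description. By library ranges alone, Scn7a and Hcn2 were higher without overlap in 3d against E18, beside 45.0% of tested genes without overlap in either direction and 9.64% higher. Scn4a, Scn7a, Scn4b and Hcn2 were higher without overlap in 8w against 3d, beside 61.3% and 22.6%, and in 8w against E18, beside 72.8% and 20.4%. The median log2 fold change of all tested genes was -0.15, -0.18 and -0.32 in the 3 comparisons, and the direction of calls over all genes moved with the scaling. After median centring 9.61%, 28.3% and 30.7% of tested genes were called higher and 8.36%, 26.7% and 26.7% lower. EdgeR was run on the deposited estimated counts, rounded, before the division into fragments described below. With it 11.7%, 30.2% and 32.4% were called higher and 10.7%, 29.6% and 29.9% lower. Scn4a, Scn7a, Scn4b and Hcn2 were called higher in both 8w comparisons on each of these scales.

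**Figure D2:**
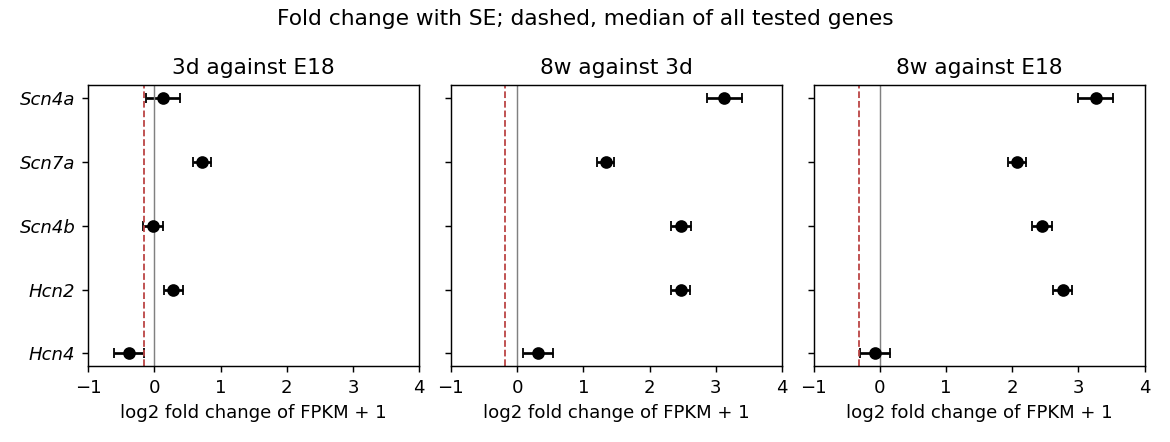
Log2 fold change of FPKM + 1 (horizontal axis) with its standard error for the 5 tested genes in the 3 comparisons; the dashed line is the median of all tested genes. In 3d against E18 the values lie between -0.38 and 0.72, and in 8w against E18 those of Scn4a, Hcn2, Scn4b and Scn7a lie at 2.07 or above.

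The libraries held 10694037 to 14201624 estimated coding fragments. Markers of cardiomyocytes summed to 21036 to 22559 FPKM at E18 and 3d and to 33798 to 35525 FPKM at 8w, with 10 of 11 at a mean of at least 1 FPKM. The other, Ttn, was listed at 0 in all libraries, so an exact 0 in this table can be a failed estimate. Markers of fibroblasts (883 to 1284 FPKM), endothelium (568 to 1110 FPKM) and smooth muscle and pericytes (438 to 541 FPKM) were present at all stages, so the libraries held RNA of several cell types. In such bulk samples fewer cells of a type and less RNA per cell cannot be told apart.

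Of the alpha subunit genes, Scn4a (ENSMUSG00000001027, GRCm38 chromosome 11, 106318592 to 106353288, minus strand) had levels of 0.37, 0.0112 and 0.401 FPKM in the E18 libraries. The 3d libraries gave 0.767, 0.197 and 0.203 FPKM, and the 8w libraries 14.1, 6.97 and 13.2 FPKM. The 8w libraries were all far above the rest, with replicate 2 the lowest of them, while E18 and 3d overlapped. The stage means were 0.261 ± 0.217, 0.389 ± 0.328 and 11.4 ± 3.9 FPKM (SD, n = 3 each). The log2 fold change was 3.13 ± 0.26 in 8w against 3d (limma adjusted p = 3.31e-06) and 3.26 ± 0.26 in 8w against E18 (limma adjusted p = 1.55e-06), the 33rd and 44th largest rises of the 11930 genes tested. Between E18 and 3d it was 0.13 ± 0.26 (limma adjusted p = 0.754).

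The estimated fragments of Scn4a ordered the early stages in another way than its FPKM. They numbered 6, 1 and 7 in the E18 libraries, 43, 19 and 20 in the 3d libraries and 595, 409 and 544 in the 8w libraries. As a share of coding fragments all 3d libraries were above all E18 libraries. The pooled ratio of 3d to E18 was 5.81, with an exact 95% interval of 3.28 to 11.1 that covers counting error only. EdgeR on the deposited estimated counts called the difference (log2 fold change 2.69, adjusted p = 0.00366). The pooled ratio was 16.3 (13.0 to 20.6) for 8w to 3d. One FPKM of Scn4a stood for 16.2 to 98.5 fragments, a 6.08-fold range, against ranges of 1.39-fold to 1.75-fold for the other genes. The GENCODE annotation gives Scn4a 1 coding transcript, of 6598 bases in 24 exons; the cause of the range was not tested. The rise of Scn4a to 8w was present on both scales, while its change from E18 to 3d was called in the estimated counts and not in FPKM.

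**Figure D3:**
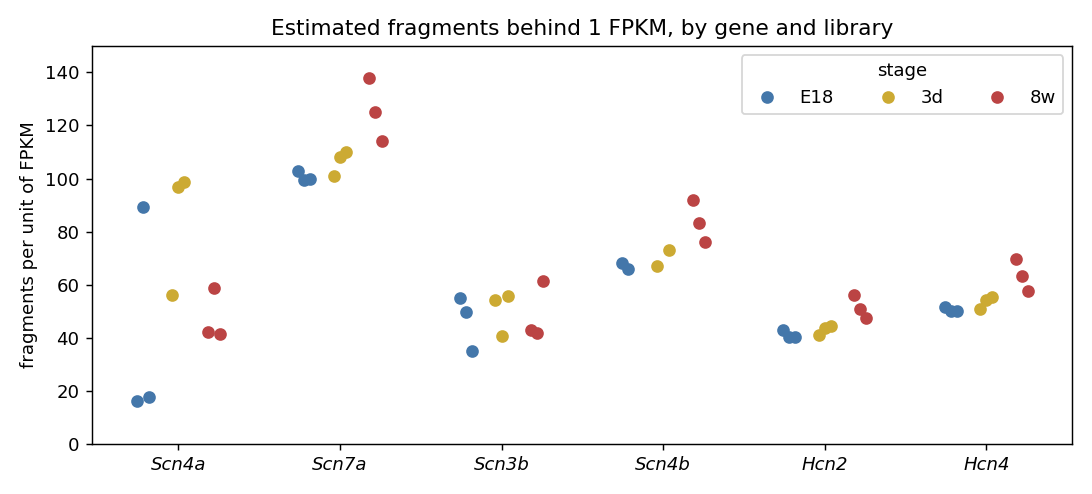
Estimated fragments divided by FPKM (vertical axis) for each gene and library, with points coloured by stage; libraries in which a gene is listed at 0 are absent. The points of Scn4a spread from 16.2 to 98.5, while those of Scn7a, Scn4b, Hcn2 and Hcn4 stay within a 1.4-fold range each.

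Scn4a is a skeletal muscle gene in textbooks, so the levels of skeletal muscle markers are given beside it. The 15 markers summed to 3.95 to 10.5 FPKM at E18, 3.62 to 6.07 FPKM at 3d and 1.99 to 2.75 FPKM at 8w. Only 1 of the 15 reached a mean of 1 FPKM. The myogenic factor gene Myod1 was listed at 0 in all 9 libraries, and the fast myosin genes Myh1, Myh2 and Myh4 were listed at 0 at 8w. As for Ttn, an exact 0 can be a failed estimate. The part of skeletal muscle RNA in the Scn4a values was not tested.

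Scn7a (ENSMUSG00000034810, chromosome 2, 66673425 to 66784914, minus strand) had levels of 2.01, 1.97 and 1.78 FPKM at E18. At 3d the levels were 3.50, 3.82 and 4.16 FPKM, and at 8w they were 10.8, 13.0 and 10 FPKM. Every library of a later stage was above every library of an earlier one. The means of 1.92 ± 0.122, 3.82 ± 0.329 and 11.3 ± 1.56 FPKM (SD, n = 3 each) correspond to 1.99-fold and 2.95-fold steps and to a 5.88-fold difference from E18 to 8w. Scn7a rose by 0.72 ± 0.13 on the log2 scale in 3d against E18 (limma adjusted p = 0.00296). It rose by 1.34 ± 0.13 in 8w against 3d (limma adjusted p = 7.56e-06) and by 2.07 ± 0.13 in 8w against E18 (limma adjusted p = 1.99e-07). Its neighbour Scn9a, an alpha subunit gene of sensory neurons 38463 bases away, was near 0 at all stages, with means of 0.0122, 0.0186 and 0.00179 FPKM.

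Glial cells are a known site of Scn7a, and the 9 markers of Schwann cells and glia were low beside it. They summed to 7.66 to 8.61 FPKM at E18, 5.0 to 8.52 FPKM at 3d and 9.69 to 14.1 FPKM at 8w, and 3 of them reached a mean of 1 FPKM. Cdh19, a Schwann cell cadherin gene, had means of 0.367, 0.986 and 2.41 FPKM. The part of glial RNA in the Scn7a rise was not tested.

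The beta subunit genes parted. Scn4b (ENSMUSG00000046480, chromosome 9, 45138395 to 45154152, plus strand) was at 0.0294, 0.0454 and 0 FPKM in the E18 libraries, from 2, 3 and 0 fragments. In the 3d libraries it was at 0.0149, 0 and 0.0137 FPKM, from 1, 0 and 1 fragments. In the 8w libraries it was at 4.88, 3.68 and 5.41 FPKM, from 448, 306 and 411 fragments. All 8w libraries stood far above the others, and E18 and 3d overlapped. Corrected for library totals, the pooled fragments at 8w were 502 times those at 3d, with an exact 95% counting interval of 139 to 4151 that is wide because the 3d stage held 2 fragments. Against the 5 fragments of E18 the ratio was 199 (85.2 to 615). Scn4b rose by 2.47 ± 0.15 on the log2(FPKM + 1) scale in 8w against 3d (limma adjusted p = 3.50e-07) and by 2.45 ± 0.15 in 8w against E18 (limma adjusted p = 2.11e-07). That scale understates the change of a gene this low. Between E18 and 3d the value was -0.02 ± 0.15 (limma adjusted p = 0.932).

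Scn3b (ENSMUSG00000049281, chromosome 9, 40269217 to 40291618, plus strand) was at 0.346, 0.462 and 0.973 FPKM at E18. It was at 0.426, 1.11 and 0.612 FPKM at 3d and at 0.350, 0.767 and 0.147 FPKM at 8w. The ranges of the 3 stages overlapped, and the spread within a stage was as wide as the difference between stage means of 0.594 ± 0.333, 0.715 ± 0.353 and 0.422 ± 0.316 FPKM (SD, n = 3 each). With no filter on low FPKM, its log2 fold changes were 0.11 ± 0.21, -0.27 ± 0.21 and -0.17 ± 0.21, with limma adjusted p of 0.795, 0.339 and 0.553. The stages held 76, 102 and 56 fragments, which limits what could be detected. The deposited locus of Scn3b spans 14.8 times the annotated gene, so it takes in neighbouring sequence whose part in the values was not tested. The annotation gives Scn3b 6 coding transcripts of 385 to 4150 bases, and 630 bases of the gene overlap Gm47266 on the other strand; nothing used here states the strand setting of the quantification.

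The log2 ratio of Scn4b to Scn3b within each library, with 1 FPKM added to both genes because Scn4b was listed at 0 in 2 libraries, had means of -0.62 at E18, -0.75 at 3d and 2.00 at 8w. Scn4b was thus the lower of the beta subunit genes in all early libraries and the higher in all adult ones. The difference was 2.75 between 8w and 3d and 2.62 between 8w and E18. Each gave p = 0.1 in a two-sided exact permutation test, the smallest value that 3 against 3 libraries allow, and p = 0.12 adjusted over the 6 ratio tests made. Between 3d and E18 it was -0.13 (exact permutation p = 0.5).

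The promoter windows of the strongest adult-rising sodium channel genes, Scn4a and Scn4b, are shown because their base composition differs although both genes were low before 8w. They are RefSeq windows of 300 bases in GRCm38.p6, 250 before to 50 after the annotated start, read 5′ to 3′ on the strand of the gene, at chr11:106349341-106349640 (minus strand) and chr9:45138374-45138673 (plus strand), with each CG dinucleotide in capitals.
Scn4a: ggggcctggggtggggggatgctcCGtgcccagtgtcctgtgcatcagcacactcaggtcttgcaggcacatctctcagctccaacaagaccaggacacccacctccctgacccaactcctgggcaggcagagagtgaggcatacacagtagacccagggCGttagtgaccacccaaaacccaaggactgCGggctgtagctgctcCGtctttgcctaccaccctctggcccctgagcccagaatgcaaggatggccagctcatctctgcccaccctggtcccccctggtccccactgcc
Scn4b: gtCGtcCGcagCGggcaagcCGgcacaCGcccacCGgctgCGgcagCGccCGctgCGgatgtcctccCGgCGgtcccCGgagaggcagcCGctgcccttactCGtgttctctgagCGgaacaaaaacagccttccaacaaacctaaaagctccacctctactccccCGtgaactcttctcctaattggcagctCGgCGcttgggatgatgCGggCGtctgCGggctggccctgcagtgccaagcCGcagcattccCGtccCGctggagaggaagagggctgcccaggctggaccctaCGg
The Scn4b window holds 26 CG dinucleotides at 66.3% G and C, and the Scn4a window holds 4 at 63.0%. The median of all 32851 windows in the table is 7 CG dinucleotides and 52.7% G and C. The Scn7a window, at 54.0% G and C, holds 3. RefSeq windows were found for 5 of the 6 genes, all but Scn3b. They start from RefSeq transcript starts, which can differ from the outer gene ends of the GENCODE coordinates. This is so for Scn4a, Scn7a, Scn4b and Hcn4.

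The pacemaker channel genes also parted. Hcn2 (ENSMUSG00000020331, chromosome 10, 79716634 to 79736108, plus strand) was at 0.210, 0.199 and 0.348 FPKM in the E18 libraries. It was at 0.736, 0.505 and 0.361 FPKM at 3d and at 7.02, 7.95 and 7.51 FPKM at 8w. No library of one stage overlapped with those of another, although the lowest 3d library lay just above the highest E18 library. The means were 0.252 ± 0.083, 0.534 ± 0.189 and 7.49 ± 0.465 FPKM (SD, n = 3 each). Hcn2 rose by 2.47 ± 0.14 on the log2 scale in 8w against 3d (limma adjusted p = 2.06e-07) and by 2.76 ± 0.14 in 8w against E18 (limma adjusted p = 5.18e-08), the 84th and 91st largest rises.

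In 3d against E18 the value for Hcn2 was 0.29 ± 0.14 (limma adjusted p = 0.153). After the libraries were centred on the median of the tested genes it was 0.46 and called (limma adjusted p = 0.029). EdgeR on the deposited estimated counts also called it (log2 fold change 1.26, adjusted p = 0.0104). The stages held 31 and 68 fragments, a ratio of 2.18 with a counting interval of 1.40 to 3.45. Without a filter on low FPKM, edgeR called 3 of the 6 genes higher in this comparison, Scn7a, Scn4a and Hcn2, beside 15.4% of all genes it tested called in either direction and 8.17% called higher. Polrmt, on the opposite strand, ends 15 bases from Hcn2, and its means were 8.76 ± 4.30, 7.47 ± 2.33 and 9.27 ± 2.83 FPKM. Bsg, 4665 bases before Hcn2 on the same strand, had means of 260 ± 4.75, 234 ± 24.2 and 646 ± 17.7 FPKM. The deposited locus of Hcn2 spans 34.5 times the annotated gene and takes in several such neighbours, whose part in its values was not tested.

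Hcn4 (ENSMUSG00000032338, chromosome 9, 58823412 to 58863175, plus strand) was at 1.47, 1.72 and 1.73 FPKM at E18, at 1.73, 0.810 and 0.669 FPKM at 3d and at 0.934, 2.36 and 1.46 FPKM at 8w. The first 3d library was as high as the E18 libraries and the other two were lower, and all stage ranges overlapped. The means were 1.64 ± 0.146, 1.07 ± 0.577 and 1.58 ± 0.723 FPKM (SD, n = 3 each). The log2 fold changes of -0.38 ± 0.23, 0.32 ± 0.23 and -0.07 ± 0.23 gave limma adjusted p of 0.245, 0.26 and 0.811. Quantile normalization gave 0.70 in 8w against 3d and a call (limma adjusted p = 0.0169). The sign of 8w against E18 turned with the scaling and was positive after median centring, at 0.29.

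Hcn4 is a gene of nodal and atrial tissue, and the libraries differed in atrial markers. The 8 atrial markers summed to 1045, 567 and 852 FPKM in the E18 libraries, to 1289, 556 and 547 FPKM at 3d and to 1027, 681 and 223 FPKM at 8w. At 3d the library with the highest atrial sum, replicate 1, also had the highest Hcn4, Hcn2 and Scn4a. At E18 and again at 8w, replicate 1 had the highest atrial sum and the lowest Hcn4. The part of atrial tissue in these values was not tested.

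Within each library Hcn2 was 0.142, 0.116 and 0.201 times Hcn4 in FPKM at E18 and 0.425, 0.623 and 0.539 times at 3d. At 8w it was 7.52, 3.36 and 5.15 times Hcn4. Hcn4 was therefore the higher pacemaker channel transcript in the 6 early libraries and Hcn2 in the 3 adult ones, and the stages did not overlap. The mean log2 ratio was -2.75 ± 0.40, -0.94 ± 0.28 and 2.34 ± 0.58 (SD, n = 3 each). The differences of 1.81 in 3d against E18, 3.28 in 8w against 3d and 5.09 in 8w against E18 each gave p = 0.1 in the two-sided exact permutation test, the smallest possible, and 0.12 adjusted.

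**Figure D4:**
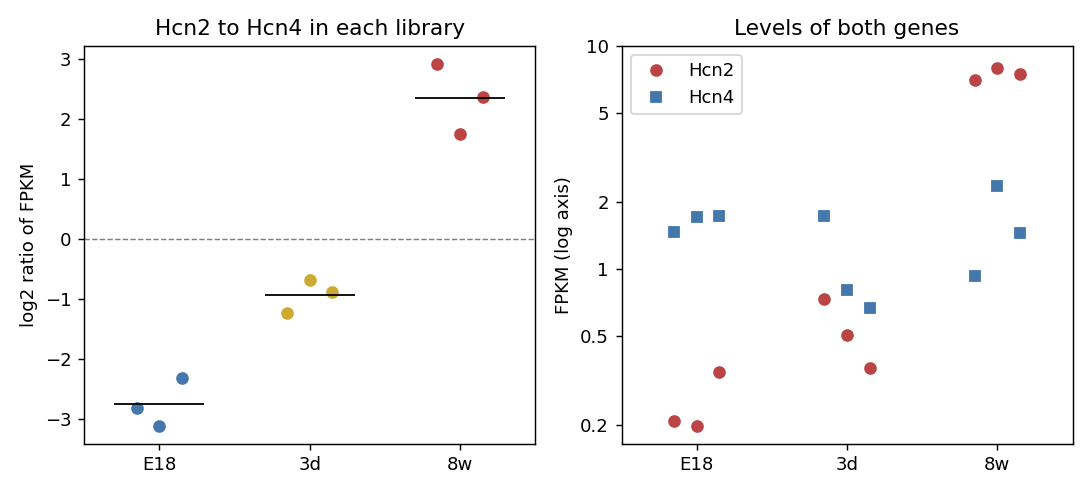
Left, log2 ratio of Hcn2 to Hcn4 in FPKM in each library (points) with the stage mean (bar), where 0 is equal levels. Right, FPKM of both genes on a log axis; Hcn2 moves from 0.199 to 0.348 FPKM at E18 to 7.02 to 7.95 FPKM at 8w, while Hcn4 stays between 0.669 and 2.36 FPKM.

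The promoter windows of Hcn2 and Hcn4 are shown because these paralogs moved apart. They lie at chr10:79716384-79716683 and chr9:58822699-58822998 (GRCm38.p6, plus strands, RefSeq). The Hcn4 window lies wholly before the GENCODE start of the gene, at 58823412. Capitals mark matches, on either strand, to the motif letters searched.
Hcn2: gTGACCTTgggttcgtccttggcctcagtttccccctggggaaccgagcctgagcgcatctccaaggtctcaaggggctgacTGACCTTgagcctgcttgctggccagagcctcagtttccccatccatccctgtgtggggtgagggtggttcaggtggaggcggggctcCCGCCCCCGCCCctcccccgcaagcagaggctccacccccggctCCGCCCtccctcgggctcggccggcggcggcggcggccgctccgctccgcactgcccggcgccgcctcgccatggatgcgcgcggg
Hcn4: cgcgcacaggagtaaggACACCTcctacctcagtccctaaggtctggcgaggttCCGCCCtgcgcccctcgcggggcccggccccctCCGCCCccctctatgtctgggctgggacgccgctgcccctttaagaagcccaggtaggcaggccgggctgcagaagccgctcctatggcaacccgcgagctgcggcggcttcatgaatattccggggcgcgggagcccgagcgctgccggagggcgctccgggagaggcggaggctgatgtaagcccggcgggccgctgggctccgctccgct
Both windows are rich in G and C, at 72.3% with 26 CG dinucleotides for Hcn2 and 71.7% with 31 for Hcn4. The letters AAGGTCA, a nuclear receptor extended site, occur in 4.72% of all windows and match the Hcn2 window at positions -249 and -168 from the annotated start, on the other strand. The T-box core letters AGGTGT occur in 13.7% of windows and match the Hcn4 window at -233. GC boxes, GGGCGG, occur in 35.7% of windows and in 3 of the 5 matched genes, with 3 matches in Hcn2, 2 in Hcn4 and 1 in Scn7a. Among the 5 genes the GATA factor letters AGATAA, found in 11.2% of windows, and the E-box letters CAGCTG, found in 16.3%, matched Scn7a alone. The TATA box letters TATAAA, found in 13.6% of windows, matched none, nor did the MEF2 letters, CTA and TAG with 4 bases of any kind between, found in 3.69%. No motif overlapped another in these windows, and a match describes letters, not a binding site.

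The order of levels per length changed between stages. At E18 Scn7a was highest and Hcn4 next, each without overlap with the genes below. Scn3b, Scn4a and Hcn2 followed and overlapped in turn, and Scn4b had the lowest mean. In E18 replicate 2, Scn4a, at 0.0112 FPKM, was below Scn4b, at 0.0454 FPKM. At 3d Scn7a was again highest and Scn4b lowest, both without overlap with the others, and Hcn4, Scn3b, Hcn2 and Scn4a overlapped in turn. At 8w Scn4a and Scn7a overlapped at the top in FPKM. In fragments they did not overlap: the 8w libraries held 595, 409 and 544 of Scn4a and 1496, 1632 and 1146 of Scn7a, whose annotated transcripts are 6598 and 7338 bases long. Hcn2, Scn4b, Hcn4 and Scn3b followed Scn7a in FPKM without overlap between neighbours. Scn4a in 8w replicate 2, at 6.97 FPKM, was below all 8w libraries of Hcn2, at 7.02 to 7.95 FPKM.

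The genes nearest in pattern over the 9 libraries, by Pearson r of log2(FPKM + 1), are given as a description, since the libraries share 3 stages. For Scn4a they were Hrc (r = 0.992), a calcium-binding protein gene of the sarcoplasmic reticulum, Tom1l2 (0.992) and Tuba8 (0.991). Hrc had means of 33.4 ± 3.29, 37.3 ± 2.73 and 210 ± 29.5 FPKM. For Scn7a they were Rgs5 (r = 0.993), a pericyte marker with means of 48.5 ± 3.77, 83.2 ± 2.70 and 242 ± 19.2 FPKM, Iigp1 (0.992) and Cd28 (0.991). For Scn4b they were the potassium channel subunit gene Kcnv2 (r = 0.998), the retinoid receptor gene Rxrg (0.997) and Hs3st5 (0.996). Kcnv2 was, like Scn4b, near 0 early, at 0.0244 and 0.0405 FPKM, and reached 3.88 ± 0.498 FPKM at 8w. For Hcn2 they were Tmem117 (r = 0.999), the triglyceride synthesis gene Dgat2 (0.998) and Fndc5 (0.998). The nearest genes of Hcn4 were Stab1 (r = 0.976), Cog5 (0.968) and Flywch1 (0.966). Those of Scn3b were Bpgm (r = 0.912), Gcc2 (0.859) and Mdp1 (0.857), the lowest likeness of the 6.

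Scn10a, Scn2b and Hcn3, further genes of these families, stayed under a mean of 1 FPKM over the 9 libraries and were not tested. Scn10a, an alpha subunit gene known from sensory neurons, had means of 0.981 ± 0.0626, 1.33 ± 0.360 and 0.256 ± 0.0890 FPKM. Scn2b, a beta subunit gene 8325 bases before Scn4b, had means of 0.445 ± 0.0724, 0.107 ± 0.0316 and 0.180 ± 0.0315 FPKM, so the adult level of Scn4b was not shared by its neighbour. Hcn3, another pacemaker channel gene, had means of 0.285 ± 0.206, 0.0983 ± 0.0951 and 0.0788 ± 0.112 FPKM, below Hcn2 at 8w.

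Genes of sodium channel partners and regulators moved in both directions, with 5 of 15 tested higher and 5 lower in 8w against E18, beside 17.8% of all tested genes called higher and 47.3% lower. After median centring 7 were higher and 4 lower, beside 30.7% and 26.7%. Their median log2 fold change was 0.20, beside -0.32 for all genes. Ptpn3, a tyrosine phosphatase gene, rose by 1.85 ± 0.13 (limma adjusted p = 6.65e-07), and Nedd4l, a ubiquitin ligase gene that acts on sodium channels, fell by 1.2 ± 0.09 (limma adjusted p = 1.17e-06). The fibroblast growth factor homologue gene Fgf11 fell by 1.2 ± 0.19 (limma adjusted p = 0.000215). Rangrf, which encodes a sodium channel trafficking factor, rose by 1.46 ± 0.19 in 8w against 3d (limma adjusted p = 7.02e-05). From E18 to 3d, 2 of the 15 rose and 4 fell, beside 5.0% and 21.4% of all tested genes, and 2 rose and 1 fell after median centring, beside 9.61% and 8.36%.

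Of 9 tested genes of HCN partners and cyclic AMP signalling, 2 rose and 3 fell in 8w against E18, beside 17.8% of all tested genes called higher and 47.3% lower. After median centring 5 rose and 1 fell, beside 30.7% and 26.7%. Chrm2, the muscarinic receptor gene of vagal slowing, rose by 1.2 ± 0.11 (limma adjusted p = 3.17e-06). Bves, a cyclic AMP binding protein gene of the Popeye family, fell by 1.89 ± 0.11 (limma adjusted p = 1.68e-07). In 8w against 3d the phosphodiesterase gene Pde3a rose by 0.83 ± 0.11 (limma adjusted p = 7.89e-05) and the adenylyl cyclase gene Adcy6 fell by 0.50 ± 0.11 (limma adjusted p = 0.00254).

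Most tested genes on a list of pacemaker and conduction system transcription factors and markers fell toward the adult, while Hcn4 was not called. The list mixes factors and markers of different kinds, with Rest and Nkx2-5 among those that fell. The part of pacemaker tissue in these falls was not tested. The list held 18 genes, and those under a mean of 1 FPKM were not tested. Of these, Cntn2 had means of 0.17, 0.587 and 1.07 FPKM and Shox2 of 0.778, 0.526 and 0.789 FPKM. Isl1 had means of 0.329, 0.311 and 0.00823 FPKM and Vsnl1 of 0.574, 0.895 and 0.163 FPKM, and Gjd3 was near 0. Of 13 tested, 12 fell and 0 rose in 8w against 3d, beside 37.1% of all tested genes called lower, with a median log2 fold change of -1.02 beside -0.18. In 8w against E18, 9 fell and 0 rose, beside 47.3% called lower, with a median of -1.10. The other 4, Tbx3, Tbx5, Irx3 and Hopx, were not called. After median centring 8 fell and 1 rose in 8w against 3d, beside 26.7% called lower and 28.3% higher. With edgeR on the estimated counts 10 fell and 1 rose, beside 29.6% and 30.2%. In 8w against E18, 8 fell and 0 rose after median centring, beside 26.7% called lower, and 7 fell and 2 rose with edgeR, beside 29.9% called lower and 32.4% higher. In 8w against E18, the sinus node T-box gene Tbx18 fell by 2.33 ± 0.13 (limma adjusted p = 9.00e-08), the connexin gene Gja5 by 2.17 ± 0.26 (limma adjusted p = 3.32e-05) and Id2 by 1.92 ± 0.15 (limma adjusted p = 1.08e-06). The T-type calcium channel gene Cacna1g fell by 1.52 ± 0.24 in 8w against 3d (limma adjusted p = 0.000302).

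**Figure D5:**
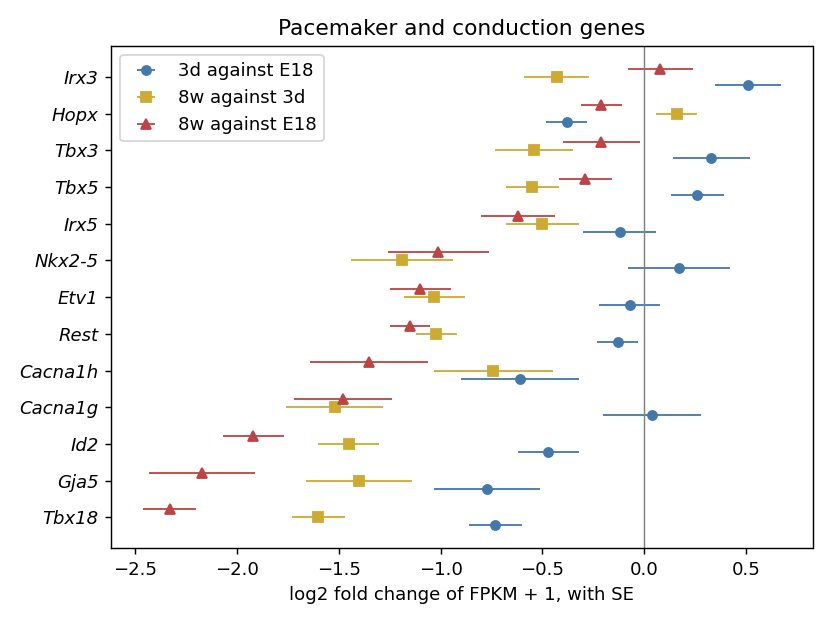
Log2 fold change of FPKM + 1 (horizontal axis) with its standard error in the 3 comparisons, for the 13 tested genes on the list of pacemaker and conduction system transcription factors and markers. Most values of both 8w comparisons lie below 0, from Tbx18 at -2.33 in 8w against E18 upward.

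Genes of other pacemaker and repolarizing currents rose and fell, with 6 of 12 tested higher and 3 lower in 8w against E18, beside 17.8% of all tested genes called higher and 47.3% lower. After median centring, and also with edgeR on the estimated counts, 8 were higher and 3 lower, beside 30.7% and 32.4% called higher. The rectifier channel gene Kcnj3 rose by 2.11 ± 0.18 (limma adjusted p = 2.58e-06) and the transient outward channel gene Kcnd3 by 1.96 ± 0.13 (limma adjusted p = 4.21e-07). In 8w against 3d, Kcnd2 rose by 1.88 ± 0.12 (limma adjusted p = 5.76e-07) and the gene of its accessory subunit Kcnip2 by 1.71 ± 0.17 (limma adjusted p = 1.04e-05). These rises lay between those of Scn7a and Scn4b in size for 8w against 3d.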

How the data were processed

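RNA was prepared with a Qiagen RNeasy kit and a SMARTER library kit, per the labels' protocols. The submitters' processing notes name cutadapt 1.9.1, HISAT2 2.0.4, Cuffdiff and the builds GRCm38 and mm10. FPKM and estimated counts per gene and library were deposited by the authors, per the file headers. The estimated counts were divided by 1 step per library, which made 93.6% to 94.7% of low values whole within 0.01, and were rounded as fragments. EdgeR and DESeq2 used the deposited estimated counts, rounded, without this division. The 22564 entries were summed to 22481 genes.

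All 9 libraries entered 1 limma-trend fit (limma 3.58.1, R 4.3.3) on log2(FPKM + 1) for genes with a mean of at least 1 FPKM. Alternatives were a pseudocount of 0.1, no filter, quantile normalization, median centring, edgeR 4.0.16, DESeq2 1.42.0, a replicate block, fits of 2 stages and leaving out each library. Simulated data had 200 genes changed by 1 on the log2(FPKM + 1) scale, up or down in equal numbers. Of these, 83%, 81% and 79.5% were called in the 3 comparisons (3d with E18, 8w with 3d, 8w with E18). False calls were 7.26%, 4.14% and 4.22% of calls. Many more genes were called in the data, so these rates need not hold there. The planned ratio of Scn4b to Scn3b without a pseudocount could not be given, because Scn4b was listed at 0 in 2 libraries. Fragment intervals are exact, at 95%. Sequences and motifs are from RefSeq (GRCm38.p6) and annotation from GENCODE vM21.

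The genes and gene lists were chosen with earlier results of these data known. Named beside the 6 genes were the 3 nearest patterns of each and up to 4 called genes per list with the largest change. Some genes are not reported here.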

Additional observations from a re-analysis of the deposited data

How the results depend on the processing

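Of 246 alternative values for the fold changes of the 6 genes, 226 kept their direction and their side of the threshold, 10 became calls and 10 changed sign. In 3d against E18, edgeR and DESeq2 each called 3 of the genes, with and without the filter, and median centring called 2, against 1. The fits of edgeR and DESeq2 without the filter were added after seeing the data. Leaving out 1 library gave 1 to 1 called in 3d against E18 and 4 to 4 in each 8w comparison. The calls over all genes were 3153, and 1823 to 3339 without 1 library, in 3d against E18, the lowest being without E18 replicate 3, 2016 without E18 replicate 1 and 1961 without E18 replicate 2. They were 6171 to 6881 in 8w against 3d and 6938 to 7365 in 8w against E18.

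Signs turned for values that were not called. Scn4a in 3d against E18 was -0.06 without 3d replicate 1 and -0.02 without E18 replicate 2, in a range of -0.06 to 0.23 over libraries left out. Scn4b in 3d against E18 was 0.16 after median centring. Hcn4 in 8w against E18 was 0.31 with DESeq2 (0.30 without the filter), 0.33 with edgeR (0.31 without the filter), 0.29 after median centring, 0.31 after quantile normalization and 0.12 without 8w replicate 1, in a range of -0.28 to 0.12 over libraries left out. The log2 ratio of Scn4b to Scn3b in 3d against E18 was 0.04 without 3d replicate 2, in a range of -0.31 to 0.04. The causes were not tested.

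With the replicate number as a block, 1, 4 and 4 of the genes were called, as without it, and 2686, 6750 and 7575 of all genes. Of the 15 sodium channel partners 0 rose and 4 fell in 3d against E18 under the block, against 2 and 4 without it. Deviations of same-numbered libraries correlated between -0.128 and 0.0992, and in 8 of 18 cases a library correlated best with its own number, so the numbers were not taken as pairs. Depth limits Scn4b, Scn4a and Hcn2 at E18 and 3d and Scn3b at all stages.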
